A study of Arabidopsis thaliana and Hordeum vulgare and Setaria italica with 13 samples.

Results

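The asparagine tRNAs with the anticodon GTT (AsnGTT) and the histidine tRNAs with the anticodon GTG (HisGTG) were described in seedlings of 7 plant species. Each of these amino acids is served by this 1 anticodon alone. They were 2 of the 52 anticodon families of the tRNA-seq table. In the YAMAT-seq tables they were 29 of 532 sequence entries, found by the anticodon in the entry's name in Arabidopsis thaliana and by the middle 3 bases of the 7-base anticodon loop in the grasses. Of these entries 23 belonged to AsnGTT and 6 to HisGTG, and since libraries shared sequences they came to 19 and 4 distinct sequences.

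All plants stood in soil at 23 ºC, with a daily cycle of 16 h light and 8 h dark, and were harvested at 10 days; the sources used here give no mutant, treatment, ecotype or cultivar. tRNA-seq, from a kit for small RNA, covered leaf and root of A. thaliana and whole seedlings of maize (Zea mays), sorghum (Sorghum bicolor), wheat (Triticum aestivum), barley (Hordeum vulgare), foxtail millet (Setaria italica) and, beside A. thaliana the only eudicot, soybean (Glycine max). YAMAT-seq, which joins a Y-shaped adapter to tRNAs that end in CCA and so selects full-length mature tRNAs, covered seedlings of A. thaliana, barley, foxtail millet, wheat and maize. Each group was 1 library, and the leaf and root columns of A. thaliana held identical values and were counted as 1 sample. YAMAT-seq totals ranged from 6851530 reads in foxtail millet to 19833183 in maize, while the depth behind the tRNA-seq percentages is unknown. The tables hold tRNAs only, so the tissue labels could not be checked against marker genes. A smaller share from fewer cells or organelles of a kind cannot be told apart from less tRNA in each of them.

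A tRNA carries its amino acid on the CCA end and reads a codon through its anticodon. The G at the first base of both anticodons pairs with C or, by wobble, with U in the third base of a codon, so AsnGTT reads AAC and AAU and HisGTG reads CAC and CAU. In animals and bacteria this G is changed to queuosine in the tRNAs for asparagine, histidine, aspartate and tyrosine. Plant cells make protein in the cytosol, the plastid and the mitochondrion. The cytosol uses nuclear tRNA genes, the plastid has its own set, and the mitochondrial genes for asparagine and histidine tRNAs of A. thaliana descend from plastid ones. tRNA-His is set apart by an extra G before its first base, which plastid and bacterial genes encode and which the eukaryotic cytosol adds after transcription.

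The following sequences, deposited with their CCA end, carried nearly all reads of both families or stood for the nuclear forms, and they are shown to let the forms be compared. They read 5′ to 3′ in DNA letters, and the capitals mark the anticodon. The A. thaliana plastid and mitochondrial forms of AsnGTT come first, then the form shared by the 4 grasses and a wheat form.
at_tR41_AsnGTT: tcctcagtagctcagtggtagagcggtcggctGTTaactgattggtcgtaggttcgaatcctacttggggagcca
at_tR42_AsnGTT: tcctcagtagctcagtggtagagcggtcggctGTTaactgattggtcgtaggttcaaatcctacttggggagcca
Zmays_tR230: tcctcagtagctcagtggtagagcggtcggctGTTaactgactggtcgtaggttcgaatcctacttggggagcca
Taestivum_tR662: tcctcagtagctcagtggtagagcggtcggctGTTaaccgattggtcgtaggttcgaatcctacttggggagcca
at_tR36_AsnGTT: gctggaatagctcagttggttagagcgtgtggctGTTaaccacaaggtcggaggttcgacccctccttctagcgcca
Sitalica_tR60: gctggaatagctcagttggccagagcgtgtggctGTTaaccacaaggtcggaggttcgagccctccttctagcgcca
The next 4 are every HisGTG sequence of the series, the plastid and mitochondrial forms of A. thaliana first and the nuclear forms last.
at_tR98_HisGTG: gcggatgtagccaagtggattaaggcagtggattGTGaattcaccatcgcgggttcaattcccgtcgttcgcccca
at_tR99_HisGTG: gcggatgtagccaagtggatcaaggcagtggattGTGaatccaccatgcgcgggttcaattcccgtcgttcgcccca
at_tR94_HisGTG: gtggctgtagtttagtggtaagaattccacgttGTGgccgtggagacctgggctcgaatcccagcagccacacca
Sitalica_tR97: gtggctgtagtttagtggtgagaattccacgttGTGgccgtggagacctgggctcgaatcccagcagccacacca

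Mature histidine tRNA reads of A. thaliana were almost wholly of the plastid form. How evenly the assay takes up the forms was not tested, so read shares need not be shares of the tRNA in the plant. Of 78448 HisGTG reads, 77015 or 98.2% (95% interval 98.1 to 98.3) belonged to at_tR98_HisGTG, identical to the plastid tRNA gene ArthCt088. In TAIR10.1 the sequence, taken without its CCA, lies on the minus strand of the plastid genome from position 4 to 76. The mitochondrial form at_tR99_HisGTG held 1427 reads, or 1.82% (1.73 to 1.92), and matched DA397_mgt10 at positions 124603 to 124676 of the mitochondrial genome on the minus strand. The nuclear form at_tR94_HisGTG held 6 reads, or 0.00765% (0.00281 to 0.0166). It is identical to 6 nuclear genes, among them AT1G02600 on chromosome 1 (552640 to 552711, plus strand). All intervals are exact Clopper-Pearson 95% intervals, and their width reflects counting alone: PCR copies were not marked, so reads are not independent molecules.

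Mature asparagine tRNA reads of A. thaliana were shared mainly between both organelle forms. Of 6607 AsnGTT reads, 4674 or 70.7% (69.6 to 71.8) belonged to the plastid form at_tR41_AsnGTT. It has 2 genes in the plastid genome, as ArthCt110 (129565 to 129636, plus strand) and Arthct120 (109013 to 109084, minus strand). The form at_tR42_AsnGTT held 1872 reads, or 28.3% (27.2 to 29.4), and matched the mitochondrial gene DA397_mgt05 (43544 to 43615, plus strand). The same letters stand in the nuclear genome as AT2G07764 on chromosome 2 (3496440 to 3496511, plus strand), in a known insertion of mitochondrial DNA, so reads of these copies cannot be told apart. Nuclear forms held 61 reads over 6 sequences, or 0.923% (0.707 to 1.18).

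The balance of the organelle forms thus differed between the families within the same library. The plastid form exceeded the mitochondrial form 54.0-fold (51.2 to 56.9) in HisGTG and 2.50-fold (2.37 to 2.64) in AsnGTT, and the intervals do not overlap. The plastid form of HisGTG had 16.5 times (16.0 to 17.0) the reads of the plastid form of AsnGTT. In the mitochondrial forms the order was turned around and the gap was small, with AsnGTT at 1.31 times (1.22 to 1.41) the reads of HisGTG. This library had no replicate, so these ratios have counting error but no error between plants.

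**Figure D1:**
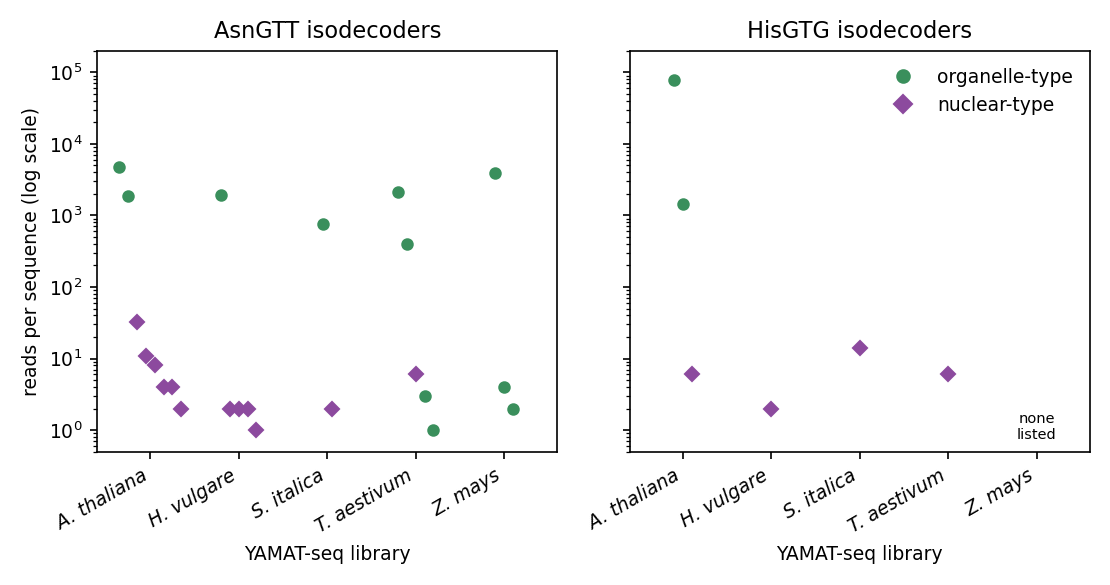
Reads of each AsnGTT sequence (left) and HisGTG sequence (right) in the 5 YAMAT-seq libraries, on a logarithmic axis, with circles for sequences nearer to an organelle tRNA of A. thaliana and diamonds for those nearer to a nuclear one. Organelle-type AsnGTT led in every library, from 760 reads in foxtail millet to 4674 in A. thaliana, while organelle-type HisGTG was listed in A. thaliana alone and nuclear-type sequences had at most 32 reads.

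In the 4 grasses AsnGTT was led by 1 and the same sequence. This sequence, shown as Zmays_tR230, held 1936 of 1943 AsnGTT reads in barley, 760 of 762 in foxtail millet, 2115 of 2522 in wheat and 3865 of 3871 in maize. As a share of the family these were 99.6% (99.3 to 99.9), 99.7% (99.1 to 99.97), 83.9% (82.4 to 85.3) and 99.8% (99.7 to 99.9). With positions counted from 1 at the 5′ end, it differs from the A. thaliana plastid form by T42C alone and from the mitochondrial form at 1 more base. The grass files name no compartment and no grass genome was used, so sequences nearer to A. thaliana organelle than nuclear tRNAs are called organelle-type here, without a choice between plastid and mitochondrion. Wheat stood apart by a further organelle-type sequence, Taestivum_tR662, with 397 reads or 15.7% (14.3 to 17.2) of its family. It differs from the A. thaliana plastid form by T39C and from the grass form by T39C and C42T.

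Organelle-type sequences made up at least 99.1% of AsnGTT reads in each of the 5 libraries. Nuclear-type AsnGTT had 61 reads in A. thaliana, 7 in barley, 2 in foxtail millet, 6 in wheat and none listed in maize. As reads per 1000000 of the library this was 4.54 (3.47 to 5.83) in A. thaliana, and wheat had the highest grass value with 0.570 (0.209 to 1.24). On this base the A. thaliana interval lay above those of the 3 grasses with listed reads. Outside GlyGCC, a glycine family that takes most of each library, it was 10.2 (7.77 to 13.0) per 1000000 reads and overlapped foxtail millet, at 2.79 (0.338 to 10.07), and wheat, at 3.65 (1.34 to 7.95), but not barley, at 2.24 (0.900 to 4.61). Only Sitalica_tR60 among the nuclear-type AsnGTT sequences was listed in more than 1 library, with 2 reads in foxtail millet and 1 in barley.

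HisGTG in the grasses held no organelle-type sequence. Sitalica_tR97 was the only HisGTG sequence of the grasses, with 14 reads in foxtail millet, 6 in wheat and 2 in barley, and no HisGTG sequence was listed in maize. It differs from the A. thaliana nuclear form by G20A, read from the grass to the A. thaliana sequence. Nuclear-type HisGTG was 0.446 reads per 1000000 of the library (0.164 to 0.972) in A. thaliana. It was 2.04 (1.12 to 3.43) in foxtail millet, 0.570 (0.209 to 1.24) in wheat and 0.153 (0.0185 to 0.553) in barley, so the foxtail millet interval alone lay above that of A. thaliana. The gap between A. thaliana with 78448 reads and grasses with at most 14 therefore lay in the organelle-type sequences. The deposited files list sequences with at least 1 read, and the sources used here do not say if an organelle-type HisGTG was among the grass tRNAs that reads could be assigned to. A missing entry in a grass thus need not mean a missing tRNA.

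The forms differ in sequence well beyond the anticodon. Among AsnGTT sequences, the 8 organelle-type ones were 72 bases long before the CCA and stood 1 to 3 edits from each other. Some of those in maize and wheat had only 1 to 4 reads and stood 1 edit from the leading grass form. Whether such reads are errors in reads of that form was not tested. The 11 nuclear-type ones were 74 bases long, 1 to 10 edits from each other and 19 to 25 edits from the organelle-type ones. Every one of the 19 AsnGTT sequences had the anticodon loop CTGTTAA and a G before the CCA. All 11 nuclear-type sequences began with G, and 7 of the 8 organelle-type sequences began with T; the exception, Zmays_tR103 with 2 reads, has T1G against the grass form.

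The HisGTG forms stand further apart, at 35 or 36 edits between organelle-type and nuclear-type sequences. The plastid and mitochondrial forms of A. thaliana differ by 3 edits, T21C, T41C and 1 inserted base, and are 73 and 74 bases long before the CCA. Their anticodon loop is TTGTGAA and the base before the CCA is C, while both nuclear-type sequences have the loop TTGTGGC and an A before the CCA. In TAIR10.1 the base just before the plastid and mitochondrial matches is G, which faces this C in the mature tRNA. The base before all 6 nuclear matches is A. The deposited HisGTG sequences begin after that place in each case, so the extra G of tRNA-His is part of none of them.

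**Figure D2:**
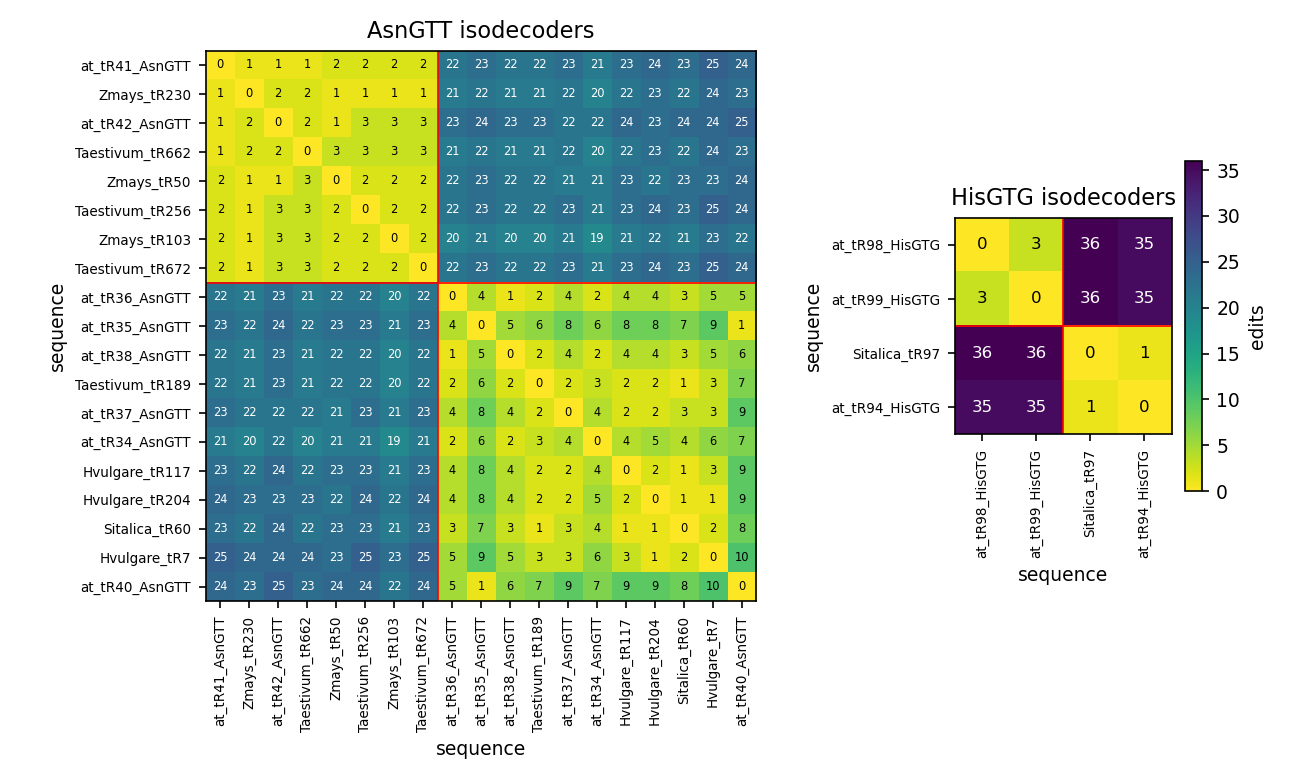
Edit distances (substitutions, insertions and deletions) between the 19 AsnGTT sequences and between the 4 HisGTG sequences of YAMAT-seq, with a red line between organelle-type sequences (top left) and nuclear-type sequences (bottom right). Distances within a type are 1 to 10 and those across types are 19 to 25 in AsnGTT and 35 or 36 in HisGTG.

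TAIR10.1 lists more nuclear than organelle genes of both families, while the nuclear forms took few reads. Genes were counted once per genome sequence, and the copies of each genome in a cell were not measured. AT2G07764, the nuclear copy of the mitochondrial AsnGTT gene, was set apart, and reads of its sequence were counted with the organelle forms. Beside it TAIR10.1 holds 15 nuclear AsnGTT genes with 7 distinct sequences, of which 6 sequences from 14 genes were listed with reads. The sequence of 6 genes (at_tR36_AsnGTT) had 32 reads and that of 4 genes (at_tR35_AsnGTT) had 11. The sequences of single genes had 8, 4, 4 and 2 reads. For HisGTG it holds 10 nuclear genes with 4 distinct sequences, and 1 sequence, that of 6 genes, was listed. The other 3 sequences, from 4 genes, were not listed. All of these genes are annotated as a single exon; the at_tR36_AsnGTT copy AT2G36140 overlaps the protein-coding gene AT2G36145, and 2 HisGTG genes do so, AT1G02600 with AT1G02590 and AT4G02055, one of those not listed, with AT4G02060.

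Codon use in A. thaliana was compared with these read counts. In coding sequences of TAIR10.1, asparagine codons were 4.40% of 11128372 nuclear codons, 4.89% of 26286 plastid codons and 3.34% of 9431 mitochondrial codons. Histidine codons were 2.27%, 2.31% and 2.64% of the same. The plastid genome thus holds 2.12 asparagine codons per histidine codon, whereas its HisGTG form had more reads than its AsnGTT form. Codons ending in C, which pair with the G of these anticodons without wobble, were 47.2% of nuclear and 23.6% of plastid asparagine codons. For histidine they were 37.7% and 24.2%. These are counts over genes as written in the genome, before RNA editing and without weights for expression.

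In tRNA-seq both families reached their highest share in sorghum, and they did not follow each other over the species. AsnGTT was 1.23% in A. thaliana and 0.127% in soybean. It was 2.24% in barley, 13.0% in sorghum, 0.725% in foxtail millet, 2.38% in wheat and 1.74% in maize. HisGTG was 4.83% in A. thaliana and 3.11% in soybean. It was 0.355% in barley, 17.8% in sorghum, 1.18% in foxtail millet, 0.116% in wheat and 2.18% in maize. HisGTG stood above AsnGTT in 5 of 7 species, and AsnGTT above HisGTG in barley and wheat.

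**Figure D3:**
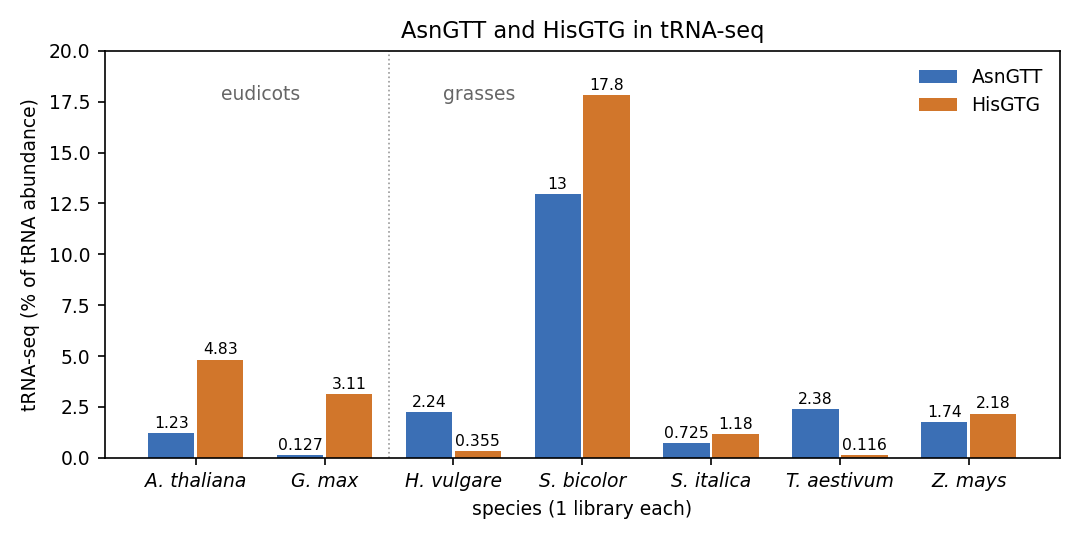
AsnGTT and HisGTG in tRNA-seq, in percent of the tRNA abundance of a library, with 1 bar per family and species and 1 library per species. Sorghum has the tallest bars, at 13.0% and 17.8%, and AsnGTT exceeds HisGTG in barley and wheat alone.

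The ratio of HisGTG to AsnGTT spanned a wide range. HisGTG was 24.5 times AsnGTT in soybean, 3.92 times in A. thaliana, 1.63 times in foxtail millet, 1.37 times in sorghum and 1.25 times in maize. AsnGTT was 6.30 times HisGTG in barley and 20.6 times in wheat. Together the families made up 30.8% of sorghum and 1.91% to 6.06% of the other 6 species. From the lowest to the highest species HisGTG differed 154-fold and AsnGTT 102-fold, both with sorghum at the top. Among the 35 families above 0 in all 7 species these were the fourth and the sixth largest spans, beside a median of 17.8-fold. These spans rested on sorghum. Without it HisGTG differed 41.8-fold, rank 8 of the 35, and AsnGTT 18.7-fold, rank 15, beside a median of 14.1-fold. With 1 library per species and no depth, neighbours in these orders cannot be set against an error.

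The rank of the families within a library moved as much. HisGTG was rank 1 of 52 in sorghum, 7 in A. thaliana, 10 in soybean, 12 in maize, 16 in foxtail millet, 29 in barley and 36 in wheat. AsnGTT was rank 3 in sorghum and between 13 and 31 in the others, lowest in soybean.

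Grasses and eudicots did not separate in either family. The 5 grasses had AsnGTT at 4.01% ± 5.05 (SD, n = 5) and the 2 eudicots at a mean of 0.680%, a difference of 2.57 in log2(percent + 0.01). Foxtail millet lay below A. thaliana, so the groups overlapped. The two-sided exact permutation test gave p = 0.190, and p = 0.660 after Benjamini-Hochberg adjustment over the 52 families. HisGTG stood at 4.33% ± 7.58 (SD, n = 5) and at a mean of 3.97% in the same groups. On the log2 scale the grasses were lower by -1.74 (exact permutation p = 0.476, adjusted p = 0.782). In this design p cannot fall below 0.0952, so the test could not pass its threshold of 0.05 for any family. The groups did not overlap in 8 of the 52 families, 15.4%, and neither AsnGTT nor HisGTG was among them.

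The grass means rested on sorghum. Without it AsnGTT was 1.77% ± 0.748 (SD, n = 4) and HisGTG was 0.957% ± 0.932 (SD, n = 4). HisGTG of the other 4 grasses was at most 2.18%, with a log2 difference to the eudicots of -2.73 (exact permutation p = 0.133, adjusted p = 0.578). This p is the smallest that the split without sorghum can give. Sorghum was set aside here for its high share in these same data, so this p is no support for a difference. There was no YAMAT-seq library of sorghum here to set beside its tRNA-seq values.

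In full-length mature tRNAs the families parted in another way. AsnGTT was 0.0492% (0.0480 to 0.0504) of YAMAT-seq reads in A. thaliana, 0.0149% (0.0142 to 0.0156) in barley, 0.0111% (0.0103 to 0.0119) in foxtail millet, 0.0240% (0.0231 to 0.0249) in wheat and 0.0195% (0.0189 to 0.0201) in maize. A. thaliana was highest, foxtail millet was lowest, and no 2 of the 5 intervals overlapped. HisGTG was 0.584% (0.580 to 0.588) in A. thaliana. Its largest share in a grass was 0.000204% (0.000112 to 0.000343), in foxtail millet. It took the 10th rank among 47 families in A. thaliana, where AsnGTT took the 20th.

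GlyGCC, the glycine family that takes most YAMAT-seq reads, held 55.3% in A. thaliana and up to 95.1% in maize, and it lowers every other share. Among the remaining reads AsnGTT was 0.110% in A. thaliana, 0.0622% in barley, 0.106% in foxtail millet, 0.154% in wheat and 0.401% (0.388 to 0.413) in maize. On this base maize and not A. thaliana was highest. HisGTG outside GlyGCC was 1.31% in A. thaliana, and its largest grass share was 0.00195%, in foxtail millet.

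Compared with tRNA-seq, both families were lower in YAMAT-seq in 5 of 5 species. This was so for 31 of the 52 families, 59.6%, so the direction is that of most families. The tRNA-seq share of AsnGTT was 25.1 times its YAMAT-seq share in A. thaliana, 150.2 times in barley, 65.2 times in foxtail millet, 99.2 times in wheat and 89.2 times in maize. The mean log2 ratio of percent + 0.01 was -5.61 ± 0.85 (SD, n = 5 species). With GlyGCC taken out of both assays it was -3.47 ± 1.13, and the tRNA-seq share was between 4.48 times the YAMAT-seq share, in maize, and 38.2 times, in barley. The median over all families moved from -3.95 to -2.94 in the same way. For HisGTG the tRNA-seq share was 8.28 times the YAMAT-seq share in A. thaliana, and 3.88 times without GlyGCC. The A. thaliana ratios set columns named leaf and root, which cannot be told apart here, against a library of seedlings, and the part of tissue in them was not tested. In the grasses 0.116% to 2.18% of tRNA-seq stood against 0 to 14 YAMAT-seq reads. The tRNA-seq share of HisGTG was 23167 times its YAMAT-seq share in barley (2 reads), 5778 times in foxtail millet (14 reads) and 2028 times in wheat (6 reads). The mean log2 ratio of HisGTG over the 5 species was -5.30 ± 2.03 (SD, n = 5), in which the added 0.01 narrows the grass ratios.

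An exact two-sided test that flips the signs of the species' ratios, a permutation test with n = 5, gave both families p = 0.0625, the smallest it can give, and an adjusted p of 0.102 over the 52 families. No family passed at 0.05, and 0 had an unadjusted p below it. In the grasses the size of the HisGTG ratio depended on the pseudocount, since the YAMAT-seq shares lie below it. With pseudocounts from 0.001 to 1 the mean over the 5 species ran from -7.86 to -1.05, and for AsnGTT it ran from -6.13 to -1.34.

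**Figure D4:**
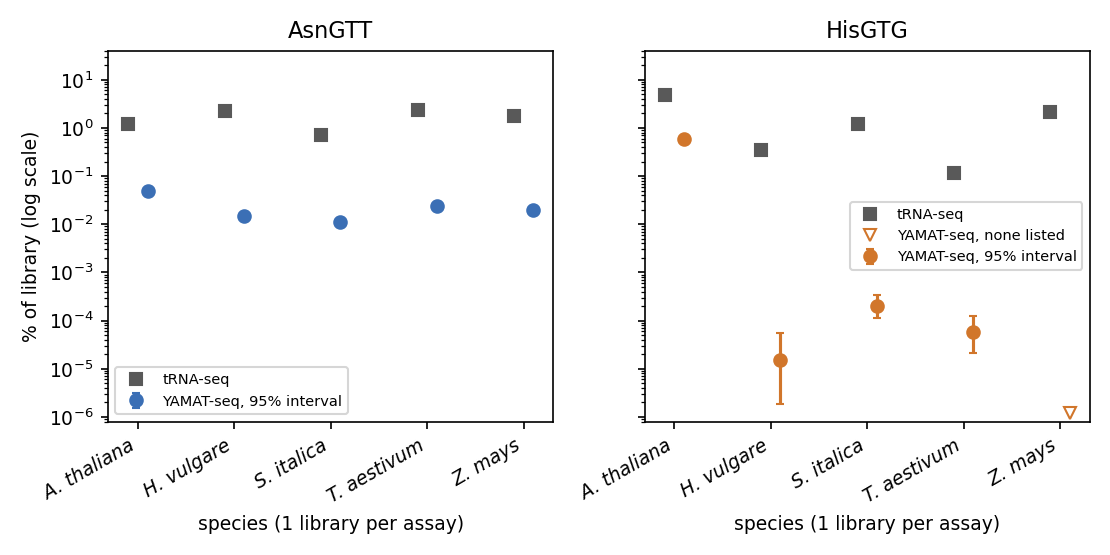
Share of AsnGTT (left) and HisGTG (right) in tRNA-seq (squares) and YAMAT-seq (circles with exact 95% intervals, counting error only) on a logarithmic percent axis, for the 5 species with both assays and 1 library per assay. YAMAT-seq lies below tRNA-seq in all 5 species, and HisGTG falls from 0.584% in A. thaliana to 0.000204% or less in the grasses, with none listed in maize (open triangle, drawn at the foot of the axis).

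Among the 4 families with a GUN anticodon, AsnGTT, HisGTG and the tyrosine family TyrGTA were lower in YAMAT-seq in 5 of 5 species and the aspartate family AspGTC was not, beside 31 of all 52 families (59.6%). The median of their mean log2 ratios was -4.89, beside -3.95 over all 52 families. AspGTC held 2.97% to 7.21% of YAMAT-seq reads and was lower in 3 species and higher in 2. TyrGTA resembled HisGTG in its counts, with 13937 reads in A. thaliana, 6 in barley, 10 in foxtail millet, 2 in maize and none listed in wheat. The 8 amino acid families with 1 standard anticodon add those for phenylalanine, cysteine, tryptophan and methionine. Of these 8, 4 were lower in 5 of 5 species, beside 31 of all 52 families (59.6%). Their median was -3.11, beside -3.95 over all 52. Higher in 5 of 5 species were 0 of the 8, while GlyGCC, outside this list, was higher in 5 of 5. Between grasses and eudicots, 0 of these 8 had groups that did not overlap, beside 8 of all 52 families (15.4%). The median difference over the 8 was -0.74 on the log2 scale, beside 0.18 over all 52.

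Over the 7 species of tRNA-seq the profile of HisGTG was most like that of ProAGG, a proline family, with a Pearson r of 0.97 in log2(percent + 0.01) and a Spearman rho of 0.96. LeuCAA (r = 0.83) and IleTAT (r = 0.66) came next among the 35 families above 0 in all species. Without sorghum and wheat, the species farthest from the median of HisGTG, r was 0.96, 0.97 and 0.91. AsnGTT was most like ArgACG (r = 0.83, rho = 0.86), ArgCCG (r = 0.72) and ValTAC (r = 0.66). Without soybean and sorghum r was 0.77, -0.47 and -0.15, so the likeness to ArgCCG and ValTAC rested on these species. AsnGTT and HisGTG had r = 0.14 and rho = -0.07 with each other. Their r was -0.59 without soybean and sorghum and -0.44 without wheat and sorghum, so its sign rested on these species. The like families were picked for the highest r over these same libraries. Their high r, with or without the species left out, is thus no separate support for a likeness. The families of a library share its total and its depth, and these values describe 7 libraries.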

How the data were processed

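The authors deposited tRNA-seq values as percent of the total tRNA abundance of a library per anticodon, per the file headers, and YAMAT-seq values as read counts for each tRNA sequence, not normalized, per the file headers. RNA came from a TRIzol extraction and went through a tRF and tiRNA pretreatment kit, per the labels' protocols. The submitters' processing notes name cutadapt and TAIR10. The sources used here give no aligner, no reference tRNAs, no handling of reads matching several tRNAs, and do not say whether fragments enter the percentages. Adapter ligation, modified bases that stop the reverse transcriptase and amplification can each favour some tRNAs.

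Anticodons were read from names in A. thaliana and otherwise from the best window of a 5-pair stem and a 7-base loop. The rule returned the annotated anticodon for 540 of 544 single-exon tRNA genes of TAIR10.1 and 143 of 143 A. thaliana entries. Sequences without CCA were matched exactly to TAIR10.1, the source of every coordinate; edit distances to its AsnGTT and HisGTG genes (edlib 1.3.9.post1) set the type. Shares have Clopper-Pearson 95% intervals (scipy 1.17.1). Assays (5 species) and grasses against eudicots (5 against 2) were compared in log2(percent + 0.01) with exact permutation tests in all 52 families and Benjamini-Hochberg adjustment. A simulation with planted shifts far larger than its noise checked only that shifted families reached the smallest p. It did not cover the adjustment or the spread seen in these data. p-values rest on the spread over species with 1 library per assay, so differences between species and between libraries cannot be told apart.

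The members and lists were chosen with earlier results of these data known. Sequences were named if they led a family, held at least 1% of it, were in several libraries or matched an organelle genome; at_tR94_HisGTG, at_tR36_AsnGTT, at_tR35_AsnGTT and Zmays_tR103 were named after their values were seen. Alternatives were other pseudocounts, shares without GlyGCC, rescaled columns, left-out species, a minimum of 10 reads and the loop rule in A. thaliana.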

Additional observations from a re-analysis of the deposited data

Results flagged for a closer look

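In tRNA-seq the AsnGTT share of sorghum, 13.0%, stood far from those of the other 4 grasses, with a gap to the next grass of 0.865 of the whole range. The HisGTG share of sorghum, 17.8%, stood apart in the same way, with a gap of 0.884 of the range. The critical value for 5 libraries is 0.710. Both values come from the same library, so they are not independent. On the scale of log2(percent + 0.01), used in the tests, the gaps were 0.590 and 0.424 of the range, both below the critical value, so the standing apart depends on the percent scale. Of 6 groups checked on the scales reported 2 stood out, and chance picks about 1 group in 20. What sets this library apart was not tested.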

How the results depend on the processing

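The tests between assays and between grasses and eudicots could not reach 0.05 at these numbers of species, so their side of the threshold says nothing about stability; their direction was the same in each alternative run. With sequences of at least 10 reads alone, the share of the leading AsnGTT sequence became 100% in barley, foxtail millet and maize, because no other sequence is left; HisGTG of barley and wheat then had no sequence to count. Leaving out 1 species moved the mean log2 ratio between assays from -5.91 to -5.38 for AsnGTT and from -5.87 to -4.68 for HisGTG (adjusted p 0.181 to 0.203 by the exact sign-flip test). With GlyGCC taken out of both assays it was -3.47 and -5.09. The difference between grasses and eudicots ranged from 1.97 to 3.01 for AsnGTT and from -2.73 to -0.94 for HisGTG when 1 grass was left out. The assays were paired by species, and the labels give no other pairing. The values without sorghum for the spans, those of nuclear-type reads outside GlyGCC and the gaps on the log2 scale were added after seeing the data. No group was replicated, and HisGTG in the grasses rests on at most 14 reads.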

Other observations

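The tRNA-seq percentages are stepped. In each of the 6 species other than A. thaliana, every value above 0 was a whole multiple of the smallest one, within 0.001 of a whole number, and in A. thaliana of the smallest value divided by 2. The sources used here do not say what a step stands for. The step was 0.0253% in sorghum and between 0.00495% and 0.0117% in the other 6 species. AsnGTT stood at 13 steps in soybean and 62 in foxtail millet, and at 208 to 512 steps in the other 5 species. HisGTG stood at 16 steps in wheat, 50 in barley and 101 in foxtail millet, and at 260 to 976 in the other 4. The low values behind the largest ratios, AsnGTT of soybean and HisGTG of wheat, are thus those with the fewest steps.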
